A study of Mus musculus with 6 samples.

Results

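The genes described here are 32 enzymes and regulators of cholesterol and fatty acid synthesis, taken as a named list of genes. They were followed through every probe set, a short stretch of a transcript read as 1 value, whose platform annotation names that gene and no other. Such probe sets were found for 31 of the 32 genes, 73 probe sets among the 45037 of the array, and the expression of Acat2 was not analysed here. In all 67 of the 73 were bright enough to be tested, among them at least 1 for each of the 31 genes. The list held 17 measured enzymes of sterol synthesis, 6 genes of its regulation and sterol transport, and 8 genes of fatty acid synthesis and desaturation. Each gene is described at its brightest tested probe set, and its other probe sets stand beside it where they differ. The 12915 genes tested in all were represented in the same way.

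The cells were mouse embryonic stem cells (mESCs), pluripotent cells of the early embryo, of mixed strain 129SV/C57BL/6 and without any treatment. One group was wild type for Setd2, the enzyme that trimethylates a lysine of histone H3 over transcribed genes, and the other was knocked out for it, with 3 arrays of total RNA in each, numbered 1 to 3. The study sought genes whose deregulation bears on primitive endoderm differentiation. Both groups had grown on feeder cells, which were then depleted by a short settling step on gelatin and 1 passage without feeders. The labels give neither the deleted part of Setd2 nor whether the arrays of a genotype came from 1 clone or several. They call the arrays biological repeats without naming separate cultures, so the p-values measure the spread between these arrays.

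Cells make cholesterol from acetyl-CoA through mevalonate, farnesyl diphosphate, squalene and lanosterol, and make fatty acids from acetyl-CoA through malonyl-CoA. The genes of both branches are switched on by the sterol regulatory element-binding proteins, SREBPs, which Scap carries from the endoplasmic reticulum to the Golgi when sterols are scarce and which the Insig proteins hold back when sterols are plentiful. SREBP2, from Srebf2, acts mainly on sterol genes, and SREBP1, from Srebf1, mainly on fatty acid genes.

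Values are log2 signals, and a difference of 1 is a factor of 2 in signal. Setd2 itself read 10.31, 10.30 and 10.31 on wild type arrays 1, 2 and 3 and 9.37, 9.50 and 9.60 on knockout arrays 1, 2 and 3. It fell by 0.82 ± 0.12 (SE) on the log2 scale (limma, adjusted p = 0.0272), and its probe set checks the genotype only where it lies within the deleted part. The 12 stem cell markers examined were all bright enough to be tested, with Nanog, Pou5f1 and Sox2 between 12.38 and 13.89 on every array. The arrays numbered 1 stood apart from those numbered 2 and 3 in both genotypes, over many genes. For this reason the members were compared both by genotype and by number. The labels do not say what a number shares, and the split was known from these arrays before the comparison was made, so its p-values describe these 6 arrays and do not test an independent condition. Number 1 was compared with numbers 2 and 3 in a limma fit that also held genotype, with p-values adjusted by the Benjamini-Hochberg method over all 27022 tested probe sets and a threshold of 0.05.

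Between genotypes no member passed the threshold. The count was 0 of 31 in either direction, beside 0.736% of all tested genes, and 2 of 31, Scap and Sc5d, had an unadjusted p under 0.05, beside 13.4% of all genes. The differences between knockout and wild type ran from -0.48 to 0.33 on the log2 scale, with 17 of 31 above 0, beside 49.9% of all genes. Over the 67 tested probe sets the count was 0 as well, beside 0.648% of all probe sets. With the replicate number as a block in the fit 1 member was lower, Scap, beside 9.87% of all genes called in either direction. Between numbers the picture was different: 12 of 31 members were higher and 1 was lower on the arrays numbered 1, beside 15.3% of all genes higher and 11.5% lower. The difference was above 0 for 25 of 31 members, beside 55.4% of all genes. Over the 67 tested probe sets 19 were higher and 2 lower, beside 11.3% and 10.0% of all probe sets. The higher members were 8 of 17 sterol enzymes, 2 of 6 regulators and 2 of 8 fatty acid genes, and the lower one was Fasn.

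**Figure D1:**
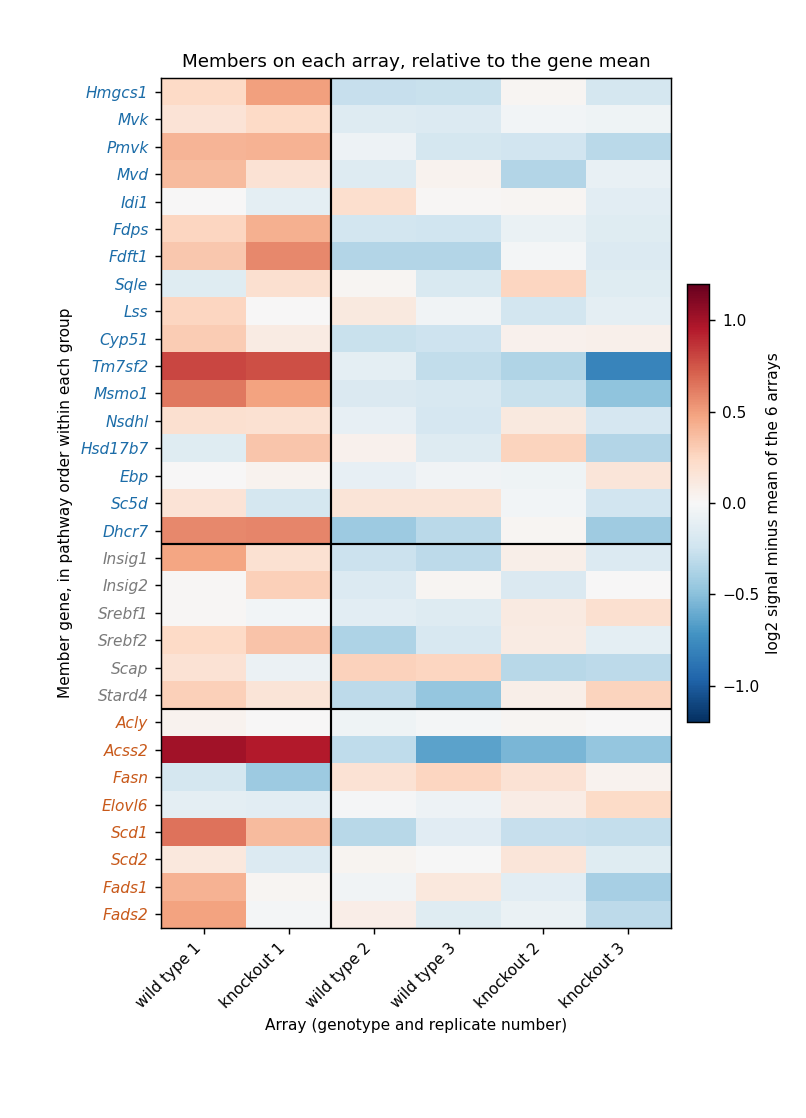
Heat map of the 31 members (rows, in pathway order within sterol enzymes, regulators and transport, and fatty acid genes) on the 6 arrays (columns), coloured by the log2 signal minus the mean of that gene over the 6 arrays. The arrays numbered 1 are in the first columns, where Tm7sf2, Msmo1, Dhcr7, Acss2 and Scd1 are high and Fasn is low in both genotypes.

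The sterol enzymes are taken first, from the start of the pathway, and by number. Hmgcs1 encodes the cytosolic synthase that makes HMG-CoA, the precursor of mevalonate. It read 12.81 on wild type array 1 and 13.07 on knockout array 1, against 12.30 and 12.31 on wild type arrays 2 and 3 and 12.60 and 12.36 on knockout arrays 2 and 3. Both arrays numbered 1 lay above the other 4, by 0.55 ± 0.07 (SE), or 1.46-fold (limma, adjusted p = 0.00101). Of its 4 other tested probe sets 3 were higher too, by 0.61 to 0.64, and the dimmest (1441536_at) differed by 0.90 with an adjusted p of 0.127 in limma.

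Pmvk and Mvd encode the kinase and the decarboxylase that turn mevalonate phosphate into isopentenyl diphosphate. Pmvk read 9.92 on both arrays numbered 1, and 9.44, 9.30, 9.28 and 9.18 on wild type arrays 2 and 3 and knockout arrays 2 and 3, a difference of 0.62 ± 0.10 (SE). Mvd read 9.64 and 9.42 on wild type array 1 and knockout array 1, and 9.10, 9.30, 8.90 and 9.16 on the other arrays in the same order. Its difference of 0.41 ± 0.12 passed at an adjusted p of 0.0319 in limma, but leaving out replicate 1 of either genotype took the adjusted p to 0.141 (wild type) and 0.145 (knockout), and leaving out replicate 2 to 0.0914 and 0.0699, above the threshold each time. Neither gene overlapped between the numbers. A second probe set of Mvd differed by 0.31 and missed the threshold. Mvk, the mevalonate kinase gene that stands between Hmgcs1 and Pmvk in the pathway, differed by 0.30 with a 95% interval of 0.02 to 0.58 (limma, adjusted p = 0.116).

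Fdps and Fdft1 encode farnesyl diphosphate synthase and squalene synthase, the step that commits carbon to sterols. Fdps read 12.09 and 12.25 on wild type array 1 and knockout array 1, and between 11.59 and 11.75 on the other 4, a difference of 0.51 ± 0.07 (SE). Fdft1 read 11.74 and 11.99 on the arrays numbered 1, against 11.06 on both wild type arrays 2 and 3 and 11.38 and 11.25 on knockout arrays 2 and 3. Its difference was 0.67 ± 0.07, or 1.60-fold (limma, adjusted p = 0.000385). A second tested probe set of Fdft1 was higher by 0.68. The arrays numbered 1 lay above all others for both genes.

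After squalene the largest differences of the sterol branch appeared. Tm7sf2, a sterol reductase gene, read 8.84 and 8.82 on wild type array 1 and knockout array 1, and 7.93, 7.75, 7.68 and 7.25 on wild type arrays 2 and 3 and knockout arrays 2 and 3. It was 2.26-fold higher on the arrays numbered 1, by 1.18 ± 0.17 (SE) on the log2 scale (limma, adjusted p = 0.00136). Msmo1, the methylsterol monooxygenase that removes methyl groups from the sterol ring, read 11.88 and 11.72 on the arrays numbered 1 and 11.07, 11.05, 10.97 and 10.75 on the others in the same order. Its difference was 0.84 ± 0.08 (adjusted p = 0.000275 in limma), while its dim second probe set differed by 1.12 with an adjusted p of 0.153. Dhcr7, the reductase of the last step to cholesterol, read 9.67 and 9.68 on the arrays numbered 1, against 8.66 and 8.77 on wild type arrays 2 and 3 and 9.12 and 8.67 on knockout arrays 2 and 3, a difference of 0.87 ± 0.14. For none of these 3 genes did the numbers overlap.

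The other 9 sterol enzymes did not pass the threshold by number. Besides Mvk they were Idi1, Sqle, Lss, Cyp51, Nsdhl, Hsd17b7, Ebp and Sc5d, with differences from -0.09 for the isomerase gene Idi1 to 0.30 for Mvk and the demethylase gene Cyp51. Mvk, Cyp51 and Nsdhl, a sterol dehydrogenase gene, had both arrays numbered 1 above all others, which brought the branch to 11 of 17 genes so placed, beside 23.6% of all tested genes. The 95% interval of Sqle, the squalene epoxidase gene and a rate-limiting step of the pathway, was -0.23 to 0.30, and that of Ebp, the sterol isomerase gene, was -0.17 to 0.25. Among the probe sets of 3 of these enzymes the sign was not uniform. Lss, the lanosterol synthase gene, differed by 0.20 and 0.45 at its brighter probe sets (limma, adjusted p = 0.259 and 0.0692) and by -1.31 at the dimmest (1420014_at), where the adjusted p was 0.0412. Sc5d, the sterol desaturase gene, differed by -0.04 at the brightest probe set and was higher by 0.72 at the other (1434520_at; limma, adjusted p = 0.0231). Cyp51 differed by 0.30 and 0.37 at 2 probe sets and by -0.19 at its dimmest.

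**Figure D2:**
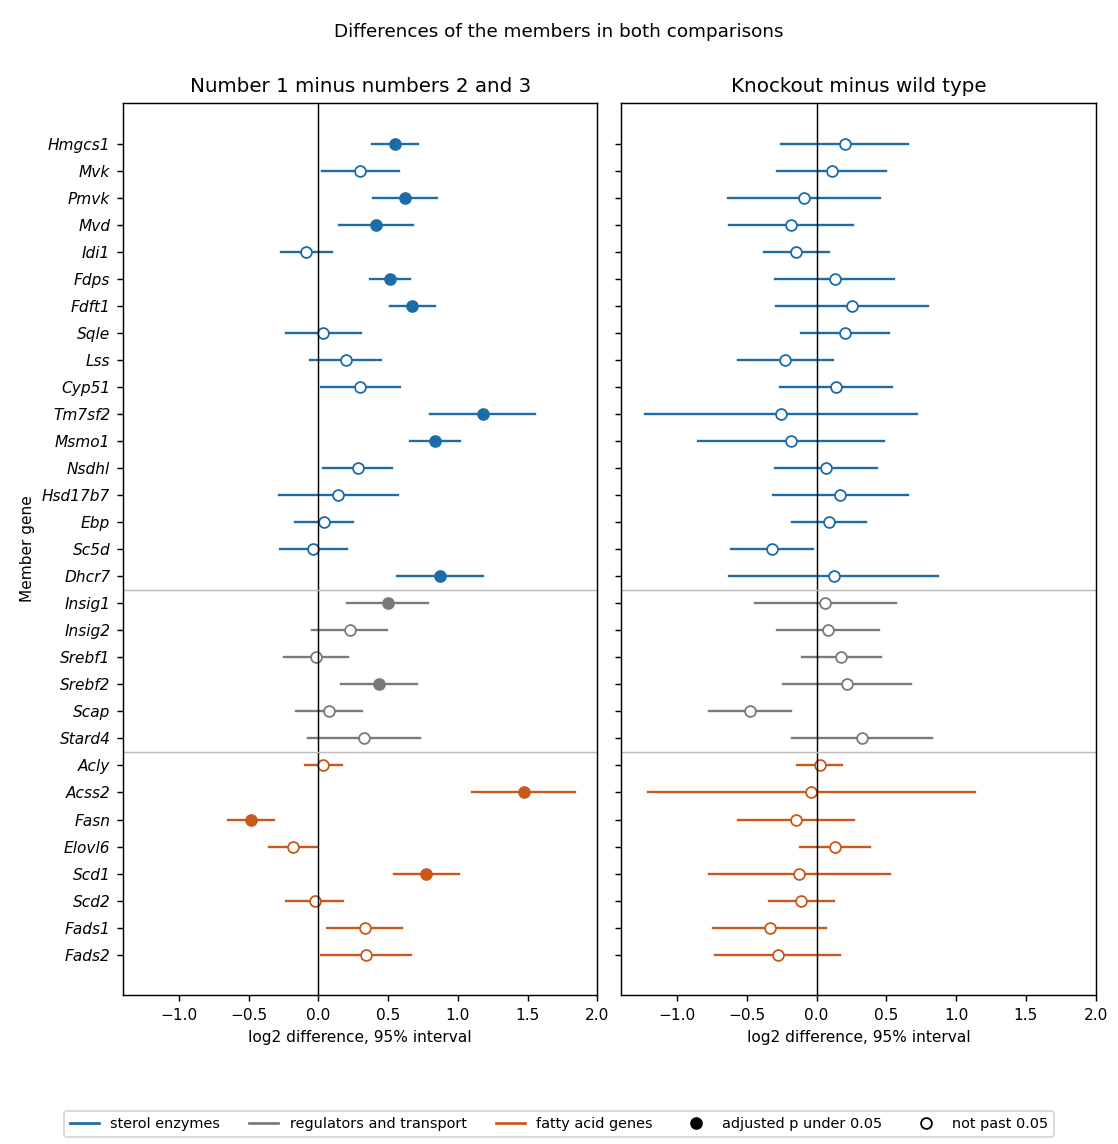
Log2 differences of the 31 members with 95% intervals from limma, number 1 minus numbers 2 and 3 on the left and knockout minus wild type on the right; filled points passed an adjusted p of 0.05. On the left 12 members are filled above 0 and Fasn below it, and on the right no point is filled.

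Among the 6 regulators and transport genes Srebf2 and Insig1 passed by number, and the median difference was 0.28. Srebf2 read 9.18 and 9.28 on wild type array 1 and knockout array 1, and 8.57, 8.74, 9.04 and 8.82 on wild type arrays 2 and 3 and knockout arrays 2 and 3. It was higher on the arrays numbered 1 by 0.44 ± 0.12 (SE; limma, adjusted p = 0.0301), while its second probe set differed by 0.06. Insig1, itself a sterol-responsive gene, read 10.31 and 10.02 on the arrays numbered 1 and 9.58, 9.52, 9.91 and 9.67 on the others in the same order, a difference of 0.50 ± 0.13 (adjusted p = 0.0224 in limma). Both calls rested on few arrays. Srebf2 passed with knockout replicate 2 left out and missed the threshold with any of the other 5 arrays left out, at 0.0513 to 0.192. Insig1 missed it with any wild type array left out, at 0.309, 0.06 and 0.0612 for replicates 1, 2 and 3, and with knockout replicate 3 left out, at 0.0602. Without wild type replicate 1 the Insig1 difference was 0.23.

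Srebf1, Insig2, Scap and Stard4 did not pass by number. Srebf1 read between 9.83 and 10.18 on all 6 arrays and differed by -0.01, with a 95% interval of -0.24 to 0.21. Insig2, the second retention factor, differed by 0.22 (-0.04 to 0.49), and Scap, the SREBP escort, by 0.08 (-0.16 to 0.31). Stard4, a carrier of cholesterol between membranes, differed by 0.33 at its brightest probe set (limma, adjusted p = 0.230). That value came from wild type cells, at 0.67, where knockout cells gave -0.01. A dimmer Stard4 probe set (1429240_at) was higher by 0.64 (adjusted p = 0.0276 in limma).

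The fatty acid genes went in both directions by number. Acss2, which makes cytosolic acetyl-CoA from acetate and feeds both branches, showed the largest difference of all 31 members. It read 8.61 on wild type array 1 and 8.55 on knockout array 1, against 7.29 and 6.95 on wild type arrays 2 and 3 and 7.05 and 7.14 on knockout arrays 2 and 3. The signal was 2.77-fold higher on the arrays numbered 1 (1.47 ± 0.17 SE; limma, adjusted p = 0.000466), and at a second probe set (1422478_a_at) 3.82-fold higher. The dimmest Acss2 probe set (1446542_at) differed by 0.46 with overlap and missed the threshold (adjusted p = 0.442 in limma). Scd1, a stearoyl-CoA desaturase gene, read 10.29 and 10.01 on the arrays numbered 1 and 9.31, 9.50, 9.36 and 9.35 on the others in the same order, a difference of 0.77 ± 0.11. Its second probe set differed by 0.40 and missed the threshold (adjusted p = 0.0866 in limma). At their brightest probe sets neither Acss2 nor Scd1 overlapped between the numbers.

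Fasn, the fatty acid synthase gene, went the other way. It read 11.46 on wild type array 1 and 11.23 on knockout array 1, and 11.84, 11.92, 11.84 and 11.70 on wild type arrays 2 and 3 and knockout arrays 2 and 3. It was 1.40-fold lower on the arrays numbered 1, by -0.48 ± 0.07 (SE; limma, adjusted p = 0.00189), with no overlap. Elovl6, which elongates the product of Fasn, also had both arrays numbered 1 below all others at its brightest probe set. The difference there of -0.18 missed the threshold (adjusted p = 0.127 in limma). Its other tested probe sets (1417403_at and 1442656_at) differed by -0.08 and -0.03, with overlap. At their brightest probe sets Fasn and Elovl6 were the 2 of 31 members so placed, beside 16.9% of all tested genes.

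Acly, which splits citrate into cytosolic acetyl-CoA, and Scd2, the second desaturase, differed by 0.04 and -0.03 by number, with 95% intervals of -0.09 to 0.17 and -0.23 to 0.18. Acss2 and Acly supply the same metabolite from acetate and from citrate. Fads1 and Fads2, desaturases of polyunsaturated fatty acids, differed by 0.33 (0.06 to 0.60) and 0.34 (0.02 to 0.66) and missed the threshold at adjusted p of 0.0772 and 0.122 in limma. A second, dimmer Fads1 probe set (1440444_at) differed by -0.38.

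Set side by side, the sterol enzymes had a median difference of 0.30 by number and the fatty acid genes of 0.18, beside 0.05 over all tested genes. With each gene at the mean of its tested probe sets the fatty acid median was 0.0033. The difference between the branches has no test here, since the lists were chosen with results of these arrays known. In wild type cells the array numbered 1 minus the mean of the other arrays gave a median of 0.43 for the sterol enzymes and 0.24 for the fatty acid genes, and in knockout cells 0.38 and 0.08. The sign was the same in both genotypes for 14 of 17 sterol enzymes, 3 of 6 regulators and 6 of 8 fatty acid genes. Together these were 23 of 31 members, beside 9495 of all 12915 tested genes, so this agreement is not particular to the members. For the 8 sterol enzymes that were higher, the pairs of values within wild type and within knockout cells ran from 0.43 and 0.39 (Mvd) to 1.00 and 1.35 (Tm7sf2). The difference by number was tested against genotype as an interaction, with 0 of 31 members past the threshold in limma, beside 0.0232% of all tested genes, and 3 of 31 with an unadjusted p under 0.05, beside 9.25%. With 2 residual degrees of freedom this fit detects only large interactions.

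**Figure D3:**
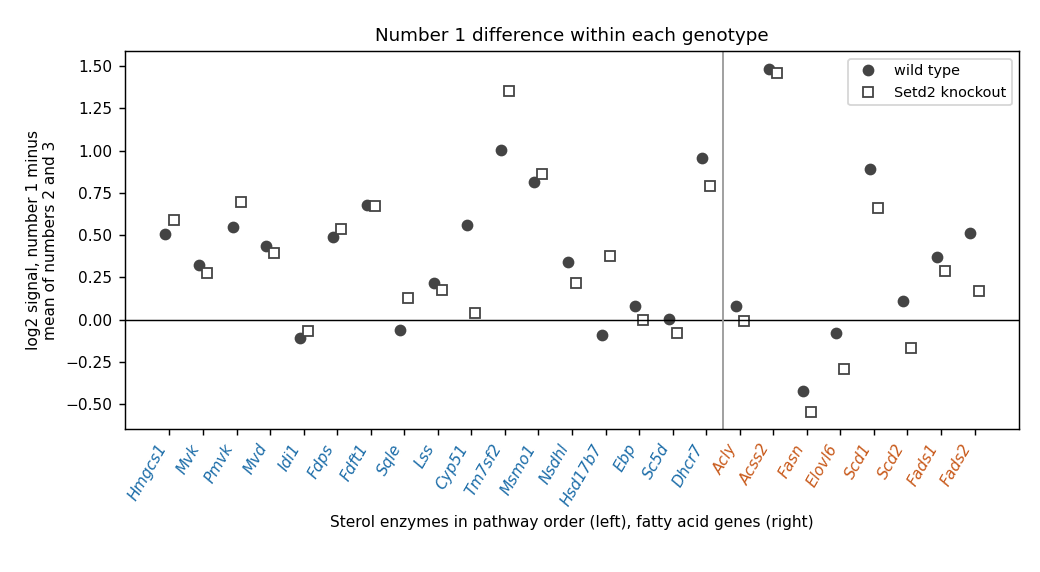
Log2 signal of the array numbered 1 minus the mean of arrays 2 and 3, within wild type (filled circles) and within knockout cells (open squares), for the 17 sterol enzymes in pathway order and the 8 fatty acid genes. Fdft1, Tm7sf2, Msmo1, Dhcr7, Acss2 and Scd1 lie above 0.6 in both genotypes, and Fasn lies at -0.42 and -0.54.

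Markers of the feeder fibroblasts moved with the number as well. Of 21 tested markers 12 were lower and 1 was higher on the arrays numbered 1, with a list median of -1.08, beside 11.5% of all tested genes lower and 15.3% higher. Summed on the linear scale, they gave 17589 on wild type array 1 and 19851 on knockout array 1, against 25518 to 31453 elsewhere, and none of the 21 was at 0 on any array. Col1a2, a fibrillar collagen gene, was 3.04-fold lower and Vim, an intermediate filament gene, 2.12-fold lower on the arrays numbered 1, while Fn1 differed by 0.19. The 1 higher marker was Mmp2, 1.88-fold higher (limma, adjusted p = 0.00262), with both arrays numbered 1 above all others. Of the 12 stem cell markers 5 were higher and 3 lower on the arrays numbered 1. Nanog was 1.70-fold higher there, while Pou5f1, Utf1 and Fgf4 were lower by number, at -0.23, -0.36 and -0.23 (limma, adjusted p = 0.0451, 0.00558 and 0.0467). The part of the feeder cells in the differences by number was not tested. In RNA from whole cultures, fewer cells of a type and less RNA per cell cannot be told apart. Between genotypes the feeder markers gave 0 of 21 past the threshold in limma, with a median of -0.07. An unadjusted p under 0.05 was found for 2 of them, beside 13.4% of all tested genes. With the replicate block 2 of 21 were higher in knockout cells, Fn1 (0.43, limma adjusted p = 0.00327) and Pdgfrb (0.81, adjusted p = 0.043). Of all tested genes 4.13% were higher with the block, and 9.87% were called in either direction.

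**Figure D4:**
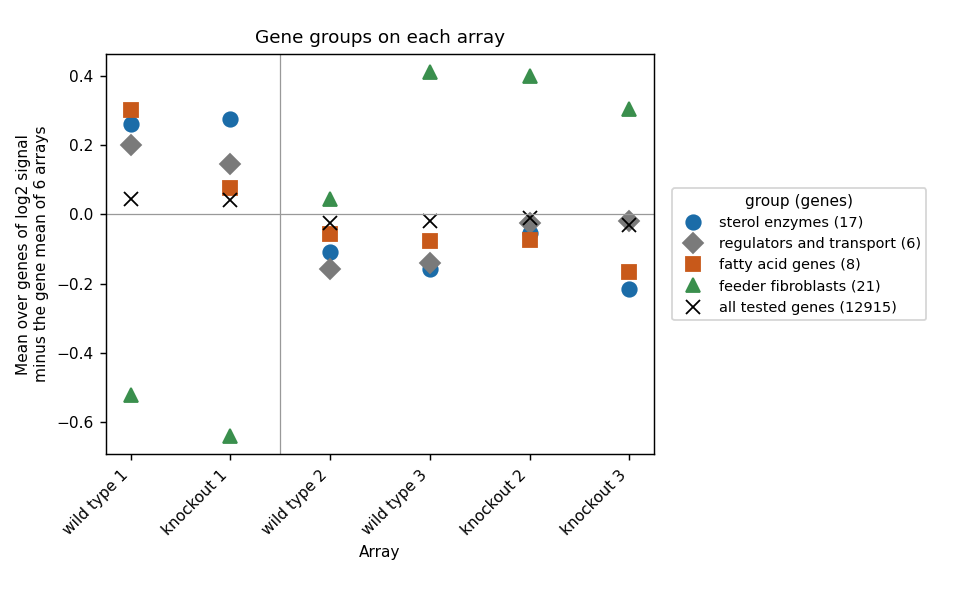
Mean over genes of the log2 signal minus the mean of each gene over the 6 arrays, for the sterol enzymes (17 genes), regulators and transport (6), fatty acid genes (8), feeder fibroblast markers (21) and all tested genes (12915) on each array. The sterol enzymes lie at 0.26 and 0.28 on the arrays numbered 1 and at -0.21 to -0.05 elsewhere, and the feeder markers at -0.52 and -0.64 against 0.05 to 0.41.

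Promoters of members called by number are shown because the members share a regulator. They are Hmgcs1 and Tm7sf2 from the sterol branch, and Acss2 and Fasn, which were higher and lower by number. They are examples and do not stand for the frequency of the motifs among the members. Each sequence holds the 250 bases before the start of the gene, on the strand of the gene, from RefSeq on build GRCm38.p6. Capitals mark the core of the sterol regulatory element (TCACNCCAC) and the CCAAT box (ATTGG, or CCAAT on the other strand), the site of NF-Y, a factor known to act beside SREBPs.
Hmgcs1, chr13:119690101-119690350, plus strand: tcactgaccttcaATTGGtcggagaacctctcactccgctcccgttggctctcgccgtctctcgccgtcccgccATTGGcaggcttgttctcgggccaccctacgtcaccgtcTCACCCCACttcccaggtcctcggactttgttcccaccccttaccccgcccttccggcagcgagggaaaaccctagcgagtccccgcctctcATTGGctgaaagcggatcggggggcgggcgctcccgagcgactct
Tm7sf2, chr19:6067851-6068100, minus strand: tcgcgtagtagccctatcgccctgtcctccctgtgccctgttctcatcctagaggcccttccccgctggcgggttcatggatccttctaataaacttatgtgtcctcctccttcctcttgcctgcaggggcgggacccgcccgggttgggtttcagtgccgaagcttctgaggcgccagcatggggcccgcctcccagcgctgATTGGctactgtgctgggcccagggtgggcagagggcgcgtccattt
Acss2, chr2:155517793-155518042, plus strand: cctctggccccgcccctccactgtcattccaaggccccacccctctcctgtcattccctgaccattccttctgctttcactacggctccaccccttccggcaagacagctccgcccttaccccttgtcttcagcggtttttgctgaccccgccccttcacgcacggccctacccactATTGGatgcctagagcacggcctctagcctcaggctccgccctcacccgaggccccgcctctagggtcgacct
Fasn, chr11:120824548-120824797, minus strand: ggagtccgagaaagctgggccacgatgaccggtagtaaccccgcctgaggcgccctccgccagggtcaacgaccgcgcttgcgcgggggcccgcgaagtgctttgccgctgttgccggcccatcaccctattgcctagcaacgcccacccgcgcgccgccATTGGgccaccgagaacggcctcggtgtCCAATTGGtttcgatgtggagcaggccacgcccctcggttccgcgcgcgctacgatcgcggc

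Hmgcs1 held the element core at -137 and CCAAT boxes at -237, -176 and -45, counted from the gene start. Tm7sf2 and Acss2 held 1 CCAAT box each, at -47 and -73, and Fasn held 3, of which those at -62 and -59 overlap. Windows of 300 bases, from 250 before to 50 after the start, were searched on both strands for 25 of the 32 listed genes. A CCAAT box was found in 21 of the 25 genes, among them 14 of 15 sterol enzymes (all but Acat2), 4 of 5 regulators and 3 of 5 fatty acid genes, beside 41.1% of 27025 genes in the table. Counted by window, 22 of 33 windows of the members held one, beside 37.4% of all windows. The element core was in 1 of the 25, Hmgcs1 (1.44% of all genes), its longer form with an A before the core in 0 (0.27%) and the E-box CACGTG in 5 (8.09%). These matches are letters in a window and not measured binding.

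By genotype the members are given next, although none passed the threshold without the block. Marker genes of other cell states did move with genotype. Of 13 tested primitive endoderm markers 2 fell in knockout cells, Gata6 and, on chromosome 8, Col4a1, beside 62 of all 12915 tested genes. With the replicate block 9 fell, among them Col4a2, also on chromosome 8, beside 742 of all tested genes. The list median of the primitive endoderm markers was -1.02. Their summed linear signal ran from 9895 to 11098 on wild type arrays and from 6995 to 8277 on knockout arrays, and none was at 0. Of the 12 stem cell markers Zfp42, on chromosome 8, fell by 1.99 (limma, adjusted p = 8.37e-05), beside 62 of all tested genes. With the block 3 were lower: Zfp42, Tcl1 and, also on chromosome 8, Klf2. Lower with the block were 742 of all tested genes and 270 of the 709 on chromosome 8. The part of these cell states in the members' values was not tested. Among the sterol enzymes the 3 largest differences were those of Sc5d, Tm7sf2 and Fdft1. Sc5d read 9.40, 9.39 and 9.39 on wild type arrays 1, 2 and 3 and 9.02, 9.20 and 9.002 on knockout arrays 1, 2 and 3. All knockout arrays lay below all wild type arrays, by -0.32 with a 95% interval of -0.61 to -0.03 (limma, adjusted p = 0.382), while its second probe set differed by 0.36. Tm7sf2 differed by -0.26 (-1.23 to 0.72) and Fdft1 by 0.25 (-0.29 to 0.80). The wide intervals of these 2 genes hold their difference by number, which this fit leaves in the spread. A second Fdft1 probe set (1448130_at) was higher by 0.31 with the replicate block (limma, adjusted p = 0.0433).

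Mvd and Msmo1 lie on chromosome 8, whose 709 tested genes had a median difference of -0.34 between genotypes. They differed by -0.18 each, with intervals of -0.63 to 0.26 and -0.85 to 0.48. The second probe set of Mvd (1448663_s_at) differed by -0.45 (limma, adjusted p = 0.434). The median of all 17 sterol enzymes was 0.09, beside -0.0006 over all tested genes. Lss differed by -0.22 and -0.39 at 2 probe sets and by 0.48 at another (1426913_at). Hsd17b7 differed by 0.17 at its brightest probe set and by -0.73 at another (1448865_at), where knockout array 3 read 4.73 and the other 5 arrays between 6.86 and 7.65.

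Scap had the largest difference between genotypes of the 31 standing probe sets. It read 9.93, 10.03 and 10.02 on wild type arrays 1, 2 and 3 and 9.69, 9.42 and 9.44 on knockout arrays 1, 2 and 3. Every knockout array lay below every wild type array, by -0.48 ± 0.13 (SE), a 1.39-fold lower signal with a 95% interval of -0.77 to -0.18. The adjusted p in limma was 0.185, and 0.0217 with the replicate block. A dim second probe set (1442885_at) differed by -0.01. Scap and Sc5d were the 2 of 31 members whose genotypes did not overlap, beside 19.2% of all tested genes. On chromosome 9 Scap lies near Setd2, with 4 protein-coding genes between them in RefSeq, Ptpn23, Klhl18, Kif9 and Ngp. These differed by -0.11, -0.01, -0.28 and 0.37, with limma adjusted p from 0.780 to 0.992. Over the 6 arrays Ptpn23 read 7.55 to 8.26, Klhl18 6.42 to 6.93, Kif9 5.42 to 6.14 and Ngp 5.01 to 6.11. Kif9 and Ngp lay near the filter at 5.27, where a fall would be hard to see. Whether the Scap difference belongs to the region was not tested.

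Stard4 had the largest positive difference of any tested member probe set, and not at the brightest one. At the brightest it read 8.25, 7.66 and 7.50 on wild type arrays 1, 2 and 3 and 8.12, 8.03 and 8.23 on knockout arrays 1, 2 and 3, overlapping, with a difference of 0.33 (limma, adjusted p = 0.642). At a second (1429239_a_at) the wild type arrays read 7.74, 6.95 and 7.20 and the knockout arrays 8.44, 8.42 and 8.17. These did not overlap and differed by 1.05, with an adjusted p in limma of 0.105, and 0.00556 with the replicate block. At another (1429240_at) the difference was 1.00 (0.197, and 0.00350 with the block), again without overlap. Srebf2 and Srebf1 differed by 0.22 (-0.24 to 0.68) and 0.18 (-0.10 to 0.46), and Insig1 and Insig2 by 0.06 and 0.08.

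Among the fatty acid genes 2 of 8 lay above 0 between genotypes, with a median of -0.12 and no call. Over their 21 tested probe sets 6 had all knockout arrays below all wild type arrays, beside 8.99% of all probe sets. These belonged to Acly, Fads2, Scd1 and Scd2 only, some to the same gene. At the brightest probe sets this held for 0 of the 8 genes. Fads1 read 9.54, 9.08 and 9.25 on wild type arrays 1, 2 and 3 and 9.15, 8.99 and 8.72 on knockout arrays 1, 2 and 3. It differed by -0.34 (95% interval -0.74 to 0.07), and a second probe set by 0.36. Fads2 read 8.99, 8.59 and 8.36 against 8.48, 8.43 and 8.20 in the same order, a difference of -0.28 (-0.72 to 0.17). The genotypes overlapped for both genes at these probe sets. The other probe sets of Fads2 differed by -0.41 and -0.70, without overlap and without passing the threshold. Fasn differed by -0.15 (-0.56 to 0.27). Scd1 differed by -0.12 at its brightest probe set and by -0.54 at the other (1415965_at), without overlap there, with an adjusted p of 0.356 in limma and 0.0534 with the replicate block. Acly differed by 0.02 (-0.14 to 0.18) at its brightest probe set (1439459_x_at). At the next brightest (1451666_at) it differed by -0.17 without overlap (adjusted p = 0.483 in limma, and 0.157 with the replicate block). A dimmer probe set (1425326_at) differed by -0.39, also without overlap, with an adjusted p of 0.236 in limma and 0.0327 with the replicate block. The dimmest tested (1446315_at) differed by -0.07, with overlap. Over the 67 tested probe sets the block gave 3 higher, Fdft1 and both dimmer Stard4 probe sets, and 2 lower, Scap and Acly, beside 7.88% of all probe sets.

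Other genes of the pathways, from 4 further lists, were read in the same fits. By genotype none of the 50 tested genes passed the threshold in limma, and 6 had an unadjusted p under 0.05, beside 13.4% of all tested genes. With the replicate block 9 of the 50 passed, beside 9.87% of all tested genes. Those higher in knockout cells were Paqr3, Mylip, Lpcat3, Lpin1, Mid1ip1 and Fabp5, by 0.40 to 0.77, and those lower were Mbtps1, Acaca and Acsl3, by -0.48 to -0.39. Acaca encodes the carboxylase that makes malonyl-CoA. By number, of 7 other sterol and isoprenoid enzymes 1 was higher, Acat1, a mitochondrial thiolase gene, by 0.72, beside 15.3% of all tested genes. Of 7 genes that process or degrade SREBPs 0 passed by number in limma, beside 15.3% of all tested genes higher and 11.5% lower. An unadjusted p under 0.05 was found for 1 of the 7, beside 5264 of all 12915 tested genes. With the replicate block the protease gene Mbtps1, which cuts SREBPs in the Golgi and lies on chromosome 8, fell by 0.48 in knockout cells (limma, adjusted p = 0.00372), and Paqr3, a Golgi anchor of Scap, was higher by 0.61 (0.0279).

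Of 13 genes of sterol uptake, storage and efflux 8 were higher and 2 lower on the arrays numbered 1, beside 15.3% and 11.5% of all tested genes. The lower ones were Tmem97 (-0.43) and Nr1h3 (-1.25), which encodes an LXR. The Nr1h3 probe set was dim, at 4.95 and 5.01 on wild type array 1 and knockout array 1 and 5.90 to 6.58 elsewhere. The filter on the mean of the 6 arrays lay at 5.27. Scarb1, a receptor for high-density lipoprotein, was 2.41-fold higher, at 9.76 against 8.49 ± 0.09 (SD, n = 4 arrays). Mylip, a ubiquitin ligase gene induced by the sterol sensor LXR, was 2.37-fold higher, and Lpcat3, a phospholipid acyltransferase gene also known as an LXR target, 1.60-fold. Limma gave these adjusted p of 0.000345, 0.000626 and 0.00360. Abca1, in the same list of efflux genes and LXR targets, differed by -0.001 with overlap between the numbers (limma, adjusted p = 0.997). Abcg1 of that list was 1.45-fold higher (0.041). Of 23 other genes of fatty acid synthesis, elongation and activation 7 were higher and 2 lower by number, beside the same 15.3% and 11.5%. Among them Acsl5 was 2.03-fold lower, and Acsl3 and Elovl2 were 1.63-fold and 1.77-fold higher, where the Acsl genes activate fatty acids and Elovl2 elongates polyunsaturated ones.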

How the data were processed

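The deposited values were log2 signals of 6 Affymetrix arrays, made with MAS5 per the submitters' processing notes. Its version and target are not given in the sources used here. No build, pseudocount or further normalization was applied. The scale was read from the values: 2 raised to each value gave a trimmed mean (2% off each end) of 497.0 on every array, and array medians lay between 6.09 and 6.22. Detection calls were not used. For arrays the number of arrays limits the precision.

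Gene names came from the platform annotation and were updated through RefSeq (GRCm38.p6) by gene identifier: 34945 named 1 gene, 932 several and 9160 none. Those with a mean at or above the 40th percentile (5.27) were tested, 27022 in all. Probe sets whose identifier ends in _x_at or _s_at can read related transcripts. Differences were fitted with limma 3.58.1 in R 4.3.3 (lmFit, eBayes with an intensity trend, two-sided, Benjamini-Hochberg), by genotype alone, and by number with genotype in the fit. The steps were checked on simulated data.

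Arrays of the same number deviated from their genotype means together (r = 0.50, 0.229 and 0.242 for numbers 1, 2 and 3, across probe sets), all above the bound of 0.1. Unlike numbers did so too for wild type 2 with knockout 3 (r = 0.23) and wild type 3 with knockout 2 (0.169). These values set number 1 apart but do not pair number 2 or number 3 between genotypes. The replicate block is given as an alternative where it changes a call. Values on all arrays are given for members past the threshold and for the 3 largest differences of each group in each comparison; members whose probe sets differ in sign by over 0.5 are named, and up to 3 genes past the threshold of each further list. The members, lists, rule and tests were chosen with earlier results of these data known. Alternatives were the block, the number as a term, each array and both arrays numbered 1 left out, quantile normalization, median centring, no trend, other filters, and a floor at a signal of 32.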

Additional observations from a re-analysis of the deposited data

How the results depend on the processing

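By genotype the count of members called, 0 of 31, became 1 with the replicate block, 2 with a term for number 1 and 1 without both arrays numbered 1, and was 0 under the other alternatives, with the range 0 to 0 when single arrays were left out. Scap was called in each of these 3 fits (limma, adjusted p = 0.0217, 0.0164 and 0.00754) and Fdft1 with the term for number 1 (0.0481). Uncalled differences changed sign with single arrays left out: by genotype Fasn ran from -0.289 to 0.0331 and Tm7sf2 from -0.7054 to 0.0795, and by number Stard4 from -0.015 to 0.6714. The sterol median by genotype, 0.09, ran from -0.0474 to 0.1433.

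By number 21 of all 67 tested probe sets of the members were called. The single lower member, Fasn, was not called without the intensity trend (0 lower; limma, adjusted p = 0.0515). The 2 higher regulators became 0 without the genotype term, 0 without the trend, 1 under quantile normalization and 0 to 2 with single arrays left out. Acss2, Dhcr7, Fasn, Fdft1, Fdps, Hmgcs1, Msmo1, Pmvk, Scd1 and Tm7sf2 passed whichever single array was left out. The Mvd call was lost without the genotype term, under quantile normalization, under median centring and without the trend (0.0558 to 0.118).

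The sterol median of 0.30 by number was 0.43 within wild type and ran from 0.29 to 0.43 with single arrays left out. The regulators' median of 0.28 was 0.18 with all probe sets averaged. The fatty acid median of 0.18 was 0.0814 within knockout cells, 0.0033 with all probe sets averaged, and 0.0814 to 0.2424 with single arrays left out. The sterol minus fatty acid difference of 0.12 was 0.19 within wild type, 0.295 within knockout cells, 0.34 with all probe sets averaged and ran from 0.1335 to 0.295 with single arrays left out. The causes were not tested.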

Other observations

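Genes of fatty acid oxidation, the pathway that breaks down what the fatty acid branch makes, also differed by number. Of 16 tested genes 9 were higher and 1 was lower on the arrays numbered 1, with a median difference of 0.42, beside 15.3% of all tested genes higher. Cpt1a, which admits long-chain fatty acids to mitochondria, read 10.43 and 10.14 on wild type array 1 and knockout array 1, and between 7.96 and 8.83 on the other 4 arrays. Its signal was 3.50-fold higher (limma, adjusted p = 0.000387). The dehydrogenase genes Acads and Acadl were 1.71-fold and 1.63-fold higher (0.000664 and 0.00113). Between genotypes 0 of the 16 passed the threshold in limma, with 2 at an unadjusted p under 0.05, beside 13.4% of all tested genes. With the replicate block Acadm, the medium-chain dehydrogenase gene, fell by 0.37 in knockout cells (adjusted p = 0.00651).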
